A study of Bombyx mori with 3 samples.

Results

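Small heat shock proteins were examined in the fat body of larvae of the domestic silkworm Bombyx mori that had eaten the insecticide phoxim. Probes were chosen by their annotation, where the description had to name a small heat shock protein, a low-weight Hsp, a crystallin or heat shock protein 1, and zeta-crystallin and quinone entries were left out. The wording found 16 of the 23229 gene probes on the array. Of these, the probes of Hsp20.1 (sw03679) and LOC778468 (sw20098) had also been listed by name because of their ratios on these same arrays. All ratios below are therefore given as descriptions. By their descriptions 14 of the 16 probes stand for small heat shock proteins. The other 2 are a rho-crystallin (sw02555) and a predicted sea urchin lambda-crystallin homologue (sw07985). Both are named after vertebrate lens proteins that belong to enzyme families and are not small heat shock proteins, and they are described apart.

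Phoxim larvae and control larvae were both of strain p50 and of mixed sex, on day 3 of the fifth instar. Phoxim larvae ate mulberry leaves dipped in 4 µg/mL phoxim, an organophosphate that blocks acetylcholinesterase, and control larvae ate leaves dipped in water. After 24 h the fat body, the insect organ for nutrient storage and for secretion of hemolymph proteins, was taken out. There were 3 arrays, each hybridised with a phoxim RNA and a control RNA in different dyes, and 30 larvae went into an experiment. Every sample is thus RNA of whole dissected tissue, in which fewer cells of a type and less RNA per cell cannot be told apart.

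Small heat shock proteins are chaperones that bind unfolding proteins without using ATP and hold them until ATP-driven chaperones of the Hsp70 family can refold them. They share an alpha-crystallin domain and assemble into oligomers. In insects many of their genes are switched on by heat shock factor during heat and other stress, whereas some members are present without stress.

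Before the values, 3 facts about the arrays bear on them. The labels put phoxim RNA in the Cy5 dye throughout, but in the header of the replicate 2 file the phoxim RNA is the Cy3 one. The header was followed, and the authors' deposited ratio of replicate 2 runs the same way, with a correlation of 0.89 with the log2 quotient of phoxim over control intensity in header order across 6154 probes. That ratio is defined in the same header, so it is no independent evidence of which dye each RNA carried. Across the tested probes the log2 ratios of arrays 1 and 2 correlated at 0.03. The correlation was 0.35 for arrays 1 and 3 and 0.27 for arrays 2 and 3, as a description over probes that share arrays and dyes. Fat body markers were bright, with 42 of 81 probes for storage proteins, lipoproteins and vitellogenin tested and summed intensities between 474878 and 781610 in phoxim samples and between 470482 and 578026 in control samples.

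A probe was tested where at least 1 of its RNAs was above background on each of the 3 arrays, with background set at the 95th percentile of the negative spots, and 11 of the 16 members met this. No member's mean ratio differed from 0 past the threshold. By limma's moderated test, 0 of 11 tested members had an adjusted p under 0.05, and so did 0 of all 6154 tested probes (0.0%). At an unadjusted p under 0.05 there were 4 members, LOC778468, Hsp20.1, Hsp21.4 and sw05107, where 10.9% of all tested probes met this mark, and 2 of those 4 had been listed by name for their ratios. The smallest adjusted p of a member was 0.30. The tested members had a median log2 ratio (phoxim over control, mean of 3 arrays) of -0.14 and all tested probes one of 0.0, with single members between -1.88 and 2.66. The -0.14 is the value of the lambda-crystallin homologue itself, and without that probe the median was -0.11. The members' median turned to 0.43 without replicate 1, to 0.14 with array weights, to 0.20 with median centring, where that of all tested probes was 0.24, and to 0.13 with the deposited ratios. The medians with median centring and with the deposited ratios were again the lambda-crystallin homologue's own values. A mean of at least 1 was reached by 2 members, LOC778468 and sw05107 (4.26% of all tested probes), and a mean of at most -1 by 2, Hsp20.1 and sw03800 (2.52%). The filter was passed by sw05107 in replicate 3 through phoxim RNA alone, and by sw03800 in replicates 1 and 2 through control RNA alone. With both RNAs required above background on every array, 9 members remained, and sw05107 and sw03800 were not among them. The SD between arrays was at least 1 for 5 of the 11 (12.7% of all tested probes). The members thus spread to both sides of 0, and the description below follows the genes and not the median. No member was saturated.

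**Figure D1:**
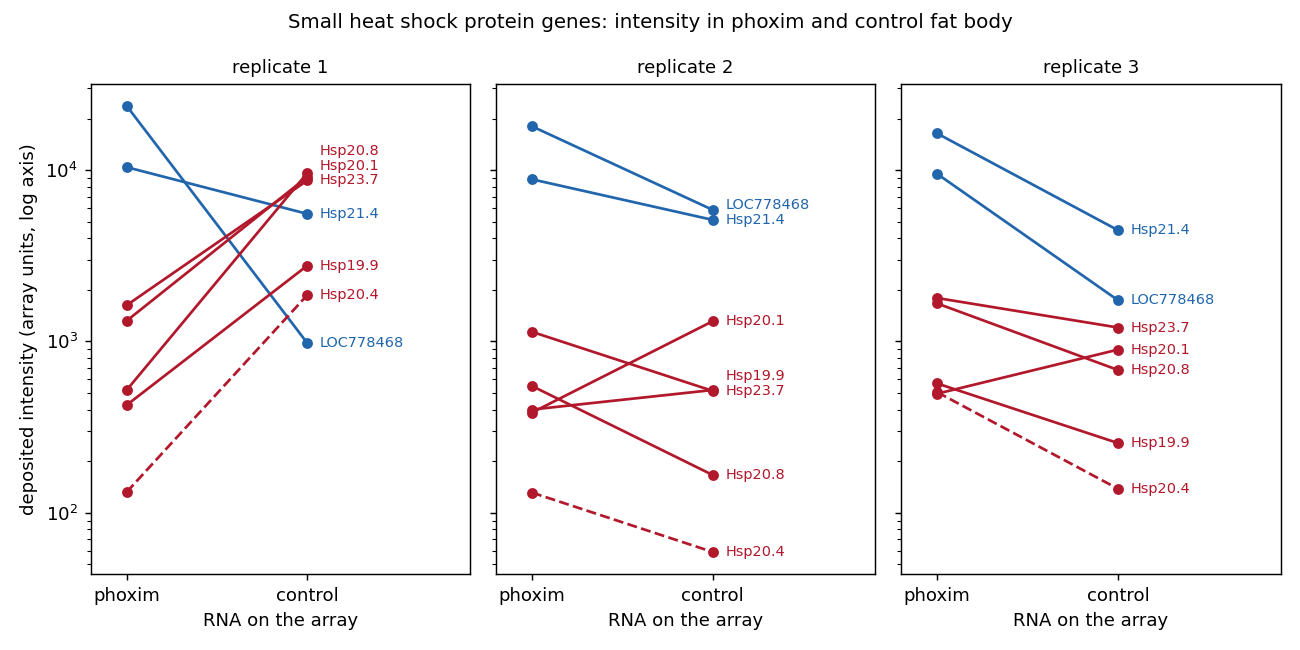
Deposited intensity (log axis, array units) of the 7 small heat shock protein probes with a gene symbol, phoxim left and control right, on each of the 3 arrays. Red lines are genes of the shared chromosome, blue lines Hsp21.4 and LOC778468, and the dashed line is Hsp20.4, which was too dim for the test. All red lines climb steeply from phoxim to control in replicate 1, where control values lie between 1867 and 9631, and run in both directions in replicates 2 and 3.

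LOC778468 (gene ID 778468, probe sw20098), annotated as heat shock protein 1 and similar to a honey bee small heat shock protein, had the highest ratio of the family. Its intensity was 23684, 18012 and 9498 in the phoxim samples of replicates 1, 2 and 3 and 976, 5859 and 1740 in the control samples. Every phoxim sample was brighter than every control sample, and the gap was widest in replicate 1, where the control sample was the dimmest of all 6. The log2 ratios after normalization were 4.56, 1.40 and 2.03, with a mean of 2.66 ± 1.67 (SD, n = 3) and a limma adjusted p of 0.30. Without replicate 1 the mean was 1.71, so the direction did not rest on that array, although the ratio was smaller without it. LOC778468 was the 1 member at least 2-fold higher on each array, which held for 0.699% of all tested probes. With the dyes of replicate 2 as labelled, its ratio on that array would be of the opposite sign and the mean would be 1.73.

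Muscle markers, genes of the contractile apparatus, followed a similar order of arrays. Of the 66 muscle probes, 34 were tested, with median log2 ratios of 2.09, 0.18 and 0.52 in replicates 1, 2 and 3, and 31, 19 and 27 of the 34 were above 0, where 3507, 2778 and 3077 of all 6154 tested probes were. Their summed intensity was 195734, 126565 and 134988 in phoxim samples and 42930, 97103 and 46802 in control samples. None of the 34 was below background on all control arrays, but control RNA was above background on all 3 arrays for only 17. Phoxim RNA was above background on all 3 arrays for 27 of the 34. Among all described probes, the 3 whose ratios lay closest to those of LOC778468 over the 3 arrays were a salt-inducible kinase 2 homologue (sw03512, Euclidean distance 0.53 log2 units), a conserved fly gene product (sw13900, 0.57) and Titin2 (sw06585, 0.82), a giant protein of the sarcomere. Control RNA was above background on 1 array for Titin2 and on 2 arrays for sw03512, which limits their ratios. The muscle list was matched by wording and also holds a few nonmuscle myosin and actin entries. The part of these markers in the ratio of LOC778468 was not tested.

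Hsp21.4 (gene ID 692534, probe sw01265) was the second named gene with higher values in phoxim fat body throughout. Its intensity was 10398, 8834 and 16359 in phoxim samples and 5549, 5121 and 4459 in control samples. The groups did not overlap, and the control samples lay close together. The log2 ratios were 0.98, 0.51 and 1.36, with a mean of 0.95 ± 0.43 (SD, n = 3, limma adjusted p = 0.39), or 0.93 without replicate 1. This was the steadiest ratio among the named genes, since 58.6% of tested probes varied as much between arrays or more.

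The probe sw09447, whose nearest match is a heat shock protein of the diamondback moth, had intensities of 4293, 3892 and 5772 in phoxim samples and 3491, 2631 and 2217 in control samples. Its log2 ratios were 0.36, 0.17 and 1.00 (mean 0.51 ± 0.43, SD, n = 3, limma adjusted p = 0.56). Here again each phoxim sample exceeded each control sample. LOC778468, Hsp21.4 and sw09447 were the 3 of 11 tested members without overlap, with phoxim above control, on the deposited intensities as well as on normalized levels, which held for 14.0% and 7.67% of all tested probes. No tested member had every phoxim sample below every control sample, where the same scales gave 1.61% and 6.03% of all tested probes.

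Both other probes that were higher on all 3 arrays carry no gene ID and are described by their nearest match. The probe sw05107 (gene model Bmb002838, nearest match hsp20.1) had intensities of 1402, 1043 and 485 in phoxim samples and 380, 552 and 142 in control samples, the last below background. The samples overlapped, because the probe was dim in both RNAs of replicate 3, yet the log2 ratios of 1.69, 0.29 and 1.61 were all above 0, with a mean of 1.20 ± 0.78 (SD, n = 3, limma adjusted p = 0.39). The probe sw00502 (Bmb007189, nearest match the Hsp19.9 protein) had intensities of 1247, 1532 and 1966 in phoxim samples and 1079, 834 and 1430 in control samples. Its log2 ratios of 0.23, 0.31 and 0.22 were small and nearly equal, with a mean of 0.25 ± 0.05 (SD, n = 3, limma adjusted p = 0.76), and 99.2% of tested probes varied at least as much between arrays. With the 3 genes above, 5 of 11 tested members had ratios above 0 on all 3 arrays, against 18.2% of all tested probes. With the dyes of replicate 2 as labelled, this count would be 0. It was 4 among the 9 members with both RNAs above background on every array, which leaves out sw05107.

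**Figure D2:**
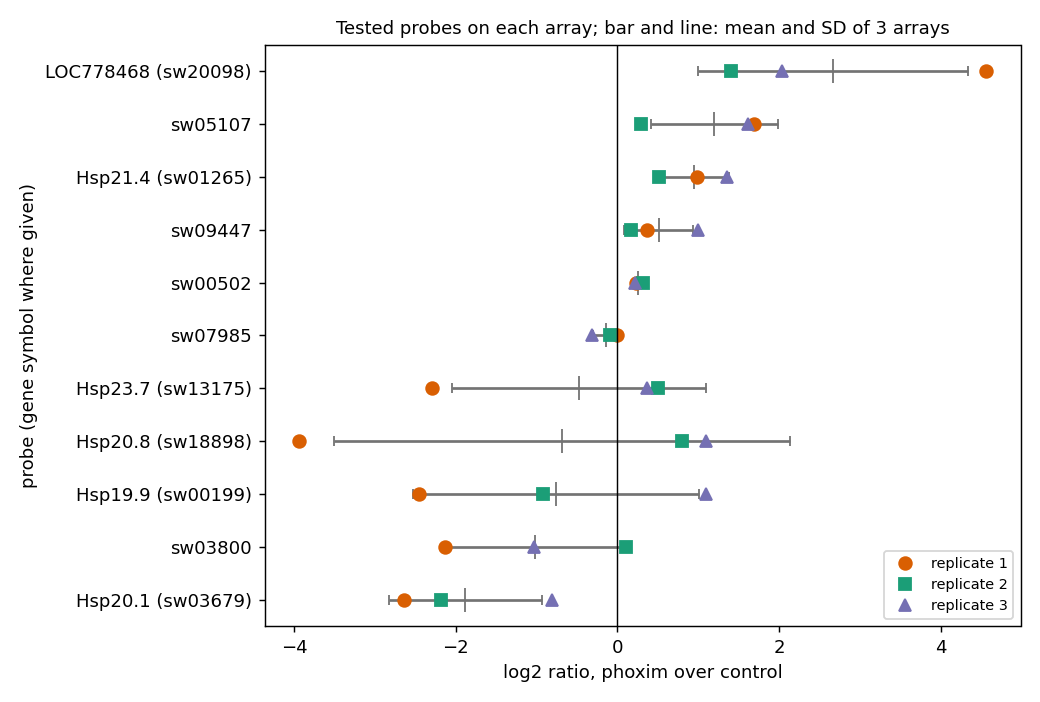
Log2 ratio of phoxim over control for the 11 tested probes on each array (symbols), with the mean and SD of the 3 arrays (bar and line). The upper 5 probes lie above 0 on all arrays, and the replicate 1 values of Hsp23.7, Hsp20.8 and Hsp19.9 lie below -2 while at least 1 other array lies above 0.

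The remaining named genes form a set by their place in the genome, which the choice of members did not use. RefSeq (assembly ASM3026992v2) lists 7 of the 8 gene IDs of the members. Hsp19.9, Hsp20.8, Hsp20.4, Hsp23.7 and Hsp20.1 lie on 1 chromosome, while Hsp21.4 and LOC778468 lie on 2 others. Hsp20.8 and Hsp20.4 are direct neighbours, with 2 genes between Hsp19.9 and Hsp20.8, and Hsp23.7 and Hsp20.1 are direct neighbours 129 genes away. These 5 genes are also compact, spanning 702 to 756 bases each, against 9364 bases for Hsp21.4 and 8010 bases for LOC778468. The gene models of the probes for Hsp19.9, Hsp20.8 and Hsp20.4 and that of sw05107 carry consecutive numbers in the files (Bmb002837 to Bmb002840).

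All 5 genes that RefSeq places on this chromosome were at least 2-fold lower in phoxim than in control RNA in replicate 1, with log2 ratios between -3.94 and -2.29. In replicate 2 the same genes had log2 ratios between -2.18 and 0.80, with 2 above 0, and in replicate 3 between -0.81 and 1.68, with 4 above 0. The 1.68 belongs to Hsp20.4, whose control RNA was below background in replicates 2 and 3. In replicate 1 Hsp21.4 and LOC778468 were above 0. So was sw05107, at 1.69, although its gene model number lies between those of Hsp19.9 and Hsp20.8. It has no gene ID, so its place in RefSeq is not known here. The set was described in this way after its values were seen. No probe sequence is given for any member, so binding of a probe to RNA of another of these genes was not tested. Among the 11 tested members 5 were at least 2-fold lower in replicate 1, namely the probes of Hsp19.9, Hsp20.1, Hsp20.8 and Hsp23.7 and sw03800, where 5.8% of all tested probes were. The 2 members at least 2-fold higher in replicate 1, LOC778468 and sw05107, stand against 16.0% of all tested probes. In replicate 2 there was 1 member at least 2-fold higher, LOC778468 (3.07% of all tested probes), and 1 at least 2-fold lower, Hsp20.1 (4.5%). In replicate 3 the same mark was passed upward by 6 members (6.43%), namely LOC778468, sw05107, Hsp21.4, sw09447, Hsp19.9 and Hsp20.8. It was passed downward by sw03800 alone (11.7%). Hsp19.9 and Hsp20.8 thus passed it in opposite directions in replicates 1 and 3. The replicate 3 control of sw05107 was below background.

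Hsp20.8 (gene ID 778499, probe sw18898) showed the widest difference between arrays. Its intensity was 520, 549 and 1665 in the phoxim samples and 9631, 166 and 681 in the control samples. The control sample of replicate 1 was the brightest of all 6, while in the other replicates phoxim was brighter than control. The log2 ratios were -3.94, 0.80 and 1.09, with a mean of -0.69 ± 2.82 (SD, n = 3, limma adjusted p = 0.83), and only 0.211% of tested probes varied as much between arrays. Without replicate 1 the mean was 0.94, of the opposite sign.

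Hsp23.7 (gene ID 692488, probe sw13175) had intensities of 1626, 1137 and 1791 in phoxim samples and 8705, 514 and 1205 in control samples. The control sample of replicate 1 lay above all phoxim samples, that of replicate 2 below them and that of replicate 3 among them. The log2 ratios were -2.29, 0.50 and 0.36, with a mean of -0.48 ± 1.57 (SD, n = 3, limma adjusted p = 0.79) and 0.43 without replicate 1. Hsp20.8 and Hsp23.7 were thus the 2 of 11 tested members with a ratio below 0 in replicate 1 and above 0 in both others, a pattern of 10.6% of all tested probes.

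Hsp19.9 (gene ID 692533, probe sw00199) had intensities of 425, 400 and 568 in phoxim samples and 2772, 520 and 255 in control samples. The log2 ratios were -2.45, -0.92 and 1.09, so phoxim was lower in replicates 1 and 2 and higher in replicate 3. The mean was -0.76 ± 1.77 (SD, n = 3, limma adjusted p = 0.67), or 0.09 without replicate 1. The Hsp20.4 probe (sw18670), which the files also assign to an alpha-crystallin gene ID, was not above background in either RNA of replicate 2 and was not tested. It is named because it completes the set. Its intensity was 132, 131 and 505 in phoxim samples and 1867, 59 and 138 in control samples, so the same control sample was again the brightest. Its log2 ratios of -3.13, -0.24 and 1.68 have no test, and the sign in replicate 2 turned with the deposited ratios (0.50).

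Hsp20.1 (gene ID 692487, probe sw03679) was the gene of this set with lower values in phoxim fat body on every array. Its intensity was 1319, 384 and 495 in phoxim samples and 9135, 1311 and 895 in control samples. On each array control was the brighter RNA, but the groups overlapped because replicate 1 was high in both. The log2 ratios were -2.64, -2.18 and -0.81, with a mean of -1.88 ± 0.95 (SD, n = 3, limma adjusted p = 0.30) and -1.50 without replicate 1. With the dyes of replicate 2 as labelled the mean would be -0.42. The 3 described probes closest to Hsp20.1 in their ratios were an ommochrome-binding protein (sw11056, Euclidean distance 1.24 log2 units), a zinc finger FYVE domain protein (sw06959, 1.30) and a chorion protein (sw07685, 1.33), and no other member was among them. Its neighbour Hsp23.7 differed from it in replicate 2, at 0.50 against -2.18.

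For these genes replicate 1 was set against the other replicates in each RNA. On levels normalized within and between arrays, the phoxim sample of replicate 1 differed from the mean of the other phoxim samples by -0.71 to 1.49 log2 units for the 5 genes, and the control sample of replicate 1 stood 2.40 to 4.17 above the mean of the other control samples. For Hsp20.4 both of those other control samples were below background. The probes of Hsp19.9, Hsp20.1, Hsp20.8 and Hsp23.7 were the 4 of 11 tested members whose control level in replicate 1 was at least 2-fold above both other control samples, against 2.76% of all tested probes. For the phoxim level the same measure held for 1 member, Hsp20.1, against 3.74% of all tested probes. Hsp21.4 differed by -0.07 in phoxim RNA and by -0.12 in control RNA on this measure. LOC778468 went the other way, with a difference of 0.90 in phoxim RNA and of -1.95 in control RNA. The probe sw05107 differed by 0.81 in phoxim RNA and by 0.07 in control RNA, with its replicate 3 control below background.

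**Figure D3:**
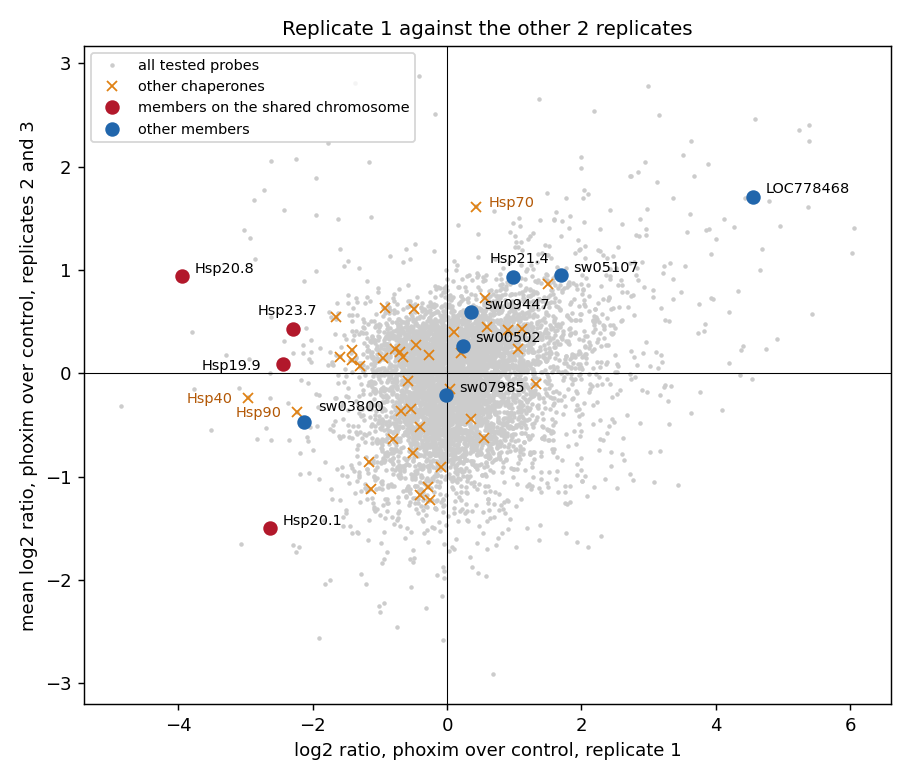
Log2 ratio of phoxim over control in replicate 1 (horizontal) against the mean of replicates 2 and 3 (vertical) for all 6154 tested probes (grey), the 40 tested probes of other chaperones (orange crosses) and the 11 tested members (red and blue). Red marks genes that RefSeq places on the shared chromosome. Blue marks all other tested members, including probes without a gene ID, whose chromosome is not known here. Hsp20.8, Hsp23.7 and Hsp19.9 lie left of -2 and above 0, Hsp20.1 lies left of -2 and below 0, and LOC778468 lies at the upper right.

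The last tested small heat shock protein probe was sw03800 (Bmb019682), whose nearest match is hsp20.8 of the pink stem borer moth. Its intensity was 33, 236 and 85 in phoxim samples, above background on 1 array, and 493, 109 and 312 in control samples, above background on 3. The log2 ratios of -2.13, 0.10 and -1.03 had a mean of -1.02 ± 1.11 (SD, n = 3, limma adjusted p = 0.46), or -0.47 without replicate 1, and the background limits their size. Among the 4 members not tested besides Hsp20.4, sw15945 (nearest match hsp20.1) had intensities of 142, 79 and 37 in phoxim samples and 3553, 10 and 60 in control samples, so that the control sample of replicate 1 stood out for it as well. It is named after its values were seen. The probes sw11937, sw20205 and the rho-crystallin sw02555 were above background on at most 1 array in either RNA. The lambda-crystallin homologue sw07985 was bright, at 13701, 16878 and 21777 in phoxim samples and 14830, 16314 and 17394 in control samples. Its log2 ratios of -0.01, -0.09 and -0.32 were close to 0 (mean -0.14 ± 0.16, SD, n = 3, limma adjusted p = 0.89), and the mean was 0.13 with the deposited ratios. With Hsp20.1 it made up the 2 of 11 tested members below 0 on all 3 arrays, against 17.1% of all tested probes.

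Other chaperones and their helpers were taken as a list of 64 probes by description, of which 40 were tested. The list mixes ATP-driven chaperones (Hsp60, Hsp70, Hsp90 and chaperonin subunits) with DnaJ proteins, prefoldins, BAG-family regulators, calreticulin and, through its wording, metal and tubulin chaperones. None of the 40 passed (limma, 0 with an adjusted p under 0.05). By the same test 9 of the 40 (22.5%) had an unadjusted p under 0.05, against 10.9% of all tested probes. The median log2 ratio was -0.20, with medians of -0.47, 0.27 and -0.15 in replicates 1, 2 and 3, against medians of 0.13, -0.06 and 0.0 over all tested probes. The list's median turned to 0.14 without replicate 1 and to 0.12 with median centring. For the tested small heat shock protein members the medians in replicates 1, 2 and 3 were -0.01, 0.29 and 1.00, where the -0.01 is the lambda-crystallin homologue's own value. On all 3 arrays 9 of the 40 were above 0 and 8 below 0, close to the 18.2% and 17.1% of all tested probes.

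Hsp70 (sw22585), the central refolding chaperone, had the highest mean of the list. Its intensity was 620, 1223 and 408 in phoxim samples and 443, 248 and 100 in control samples, the last below background, and its log2 ratios were 0.43, 1.45 and 1.78 (mean 1.22 ± 0.71, SD, n = 3, limma adjusted p = 0.37). A DnaJ subfamily C probe (sw19826, mean 1.08) and a BAG-family regulator of Hsp70 (sw19287, mean 0.68) were also above 0 on all arrays. For sw19826 control RNA was above background on 1 array only, which limits its mean. The lowest means with 1 sign on all arrays were those of endoplasmin (sw09820, -1.13), the Hsp90 of the endoplasmic reticulum, a T-complex chaperonin subunit (sw07725, -0.96), which belongs to the ring that folds actin and tubulin, and a DnaJ subfamily C member 3 homologue (sw17977, -0.92). Phoxim RNA of replicate 2 was below background for endoplasmin and the chaperonin subunit.

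Hsp40 and Hsp90, named after their values were seen, were at least 2-fold lower in phoxim RNA in replicate 1, like the 5 small heat shock protein genes. Hsp40 (sw13016), which hands clients to Hsp70, had intensities of 492, 427 and 653 in phoxim samples and 4600, 196 and 1088 in control samples. Hsp90 (sw01900), a chaperone of kinases and receptors, had 527, 867 and 1356 in phoxim samples and 2884, 378 and 2754 in control samples. The log2 ratios of Hsp40 were -2.97, 0.30 and -0.77, and those of Hsp90 were -2.24, 0.50 and -1.24. The control sample of replicate 1 lay 2.76 log2 units above the mean of the other controls for Hsp40 and 1.02 above it for Hsp90, whose replicate 3 control was nearly as bright. Hsp70 differed by 0.88 on this measure, and both Hsp90 and Hsp70 differed less than any of the 5 genes. Other probes of the list, not singled out here, lay above Hsp90 on it. In replicate 1, 9 of the 40 other chaperones, or 22.5%, were at least 2-fold lower in phoxim RNA, against 5.8% of all tested probes. The count was also 9 of 40 in replicate 3, against 11.7% of all tested probes. The replicate 1 control level was at least 2-fold above both other controls for 3 of the 40 (7.5%), against 2.76% of all tested probes.

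**Figure D4:**
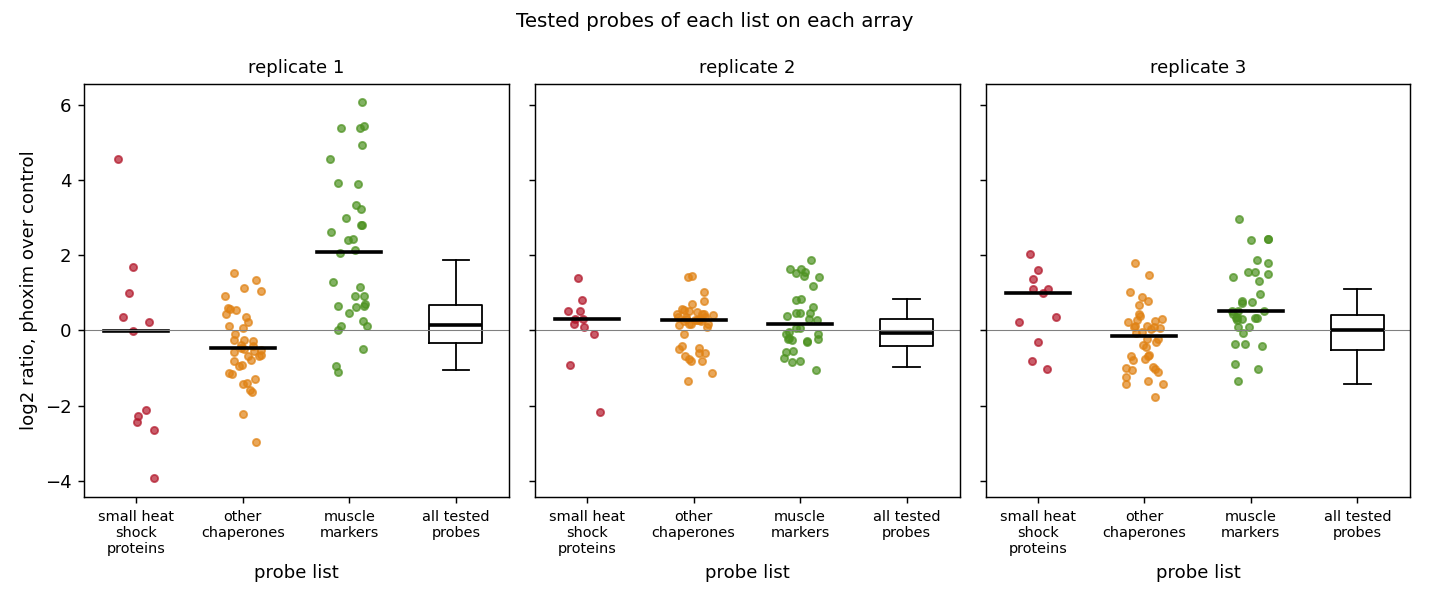
Log2 ratio of phoxim over control on each array for the tested probes of small heat shock proteins (11), other chaperones (40) and muscle markers (34), with the median as a black line, and for all 6154 tested probes as a box (quartiles, whiskers from the 5th to the 95th percentile). Muscle markers have a median of 2.09 in replicate 1. On that array 5 of the 11 member probes lie below -2, and the rest spread from -0.01 to 4.56.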

How the data were processed

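The work started from the deposited intensity of each dye. How the slides were scanned and the background removed is not stated by the labels or headers, and because blank spots centre near 0 and some values lie below 0, background was taken as already subtracted. Per the file headers the deposited ratio is phoxim over control, normalized by the authors in an unstated way. The authors' log2 value table differed from the log2 of those ratios by at most 4.96e-09. Its column medians were 0.013, -0.021 and 0.054, so scale and direction are known and centring is not. Intensities were corrected with normexp (offset 50) and normalized by loess within each array, with control spots at weight 0 (limma 3.58.1 in R 4.3.3). This replaces the foreground and background columns of a usual scanner file. The mean ratio was tested against 0 with lmFit and eBayes (two-sided), and p-values were adjusted by Benjamini-Hochberg over 6154 probes, and the array acts as the block for its RNA pair. Levels per RNA come from loess and Aquantile scaling. The threshold from 382 negative control spots was 46.9, 307.1 and 31.8 for phoxim RNA and 188.3, 101 and 175.7 for control RNA in replicates 1, 2 and 3, so it follows the dye. Only 3 arrays limit the precision, and nothing says how RNA of single larvae was combined, so the spread may be partly technical. The fit was tested on simulated data. Members and lists were chosen with earlier results of these data known. Values on every array are given for tested members with 1 sign on all arrays, a mean log2 ratio of at least 1 in size, or a gene symbol. For other chaperones the 3 highest and 3 lowest means of 1 sign are named. No probe matched the list of heat shock regulators. Median log2 ratios of tested probes for the marker lists besides fat body (0.24) and muscle (0.99) were 0.30 for hemocytes, 0.12 for midgut, -0.33 for Malpighian tubules, 0.0 for epidermis and trachea, -0.52 for silk gland and -0.03 for gonads. Alternatives covered background, normalization, dim-probe filters, dye order, a dye term, pairing, array weights and left-out replicates.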

Additional observations from a re-analysis of the deposited data

How the results depend on the processing

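With limma, 0 members and 0 of all tested probes were called under every alternative run, and the smallest adjusted p of a member lay between 0.13 with median centring and 0.88 with the dyes of replicate 2 as labelled. The array pairs each phoxim RNA with a control RNA, and without this replicate block the members' median log2 ratio was -0.14, as with it. This equality is fixed by arithmetic, since the mean ratio equals the difference of the mean levels. Only the p-values could change without the block, and no call differed. Leaving out 1 replicate at a time, that median ranged from -0.17 to 0.43 (0.43 without replicate 1). It was also above 0 with array weights (0.14) and with the deposited ratios (0.13). With 1 replicate left out, the count of members above 0 on all arrays used ranged from 5 to 7, the count below 0 from 2 to 3, and the median of the other chaperones from -0.36 to 0.14. With the dyes of replicate 2 as labelled, 0 members were higher and 1 was lower on all arrays. The count lower on all arrays was also 1 with median centring, with the deposited ratios and, chosen after seeing the data, without the lambda-crystallin probe. Median centring moved the median of all tested probes to 0.24 and that of the members to 0.20, which is -0.03 relative to it, and that of the other chaperones to 0.12. The members' medians with median centring and with the deposited ratios were the values of the lambda-crystallin probe. Hsp20.8 turned to 0.14 with array weights. The cause of these shifts was not tested. Each of the 5 untested members had an array with neither RNA above background, which limits its ratio there.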
